A study of Mus musculus with 20 samples.

Results

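Of the 11222 enhancers in the deposited table, 968 (8.63%) had no tag in either library of unstimulated macrophages and 20 or more tags in total over the 18 libraries of stimulated macrophages. These 968 regions, called silent enhancers here, were chosen on those tag counts, so that their level of 0 before stimulation and their presence after it are given as a description. The measurement was nAnT-iCAGE, which reads capped 5' ends of RNA as tags and does not amplify them. The cells were macrophages grown with M-CSF from the bone marrow of C57BL/6 mice. They received interferon gamma (IFN-γ) together with CpG, CpG alone or IFN-γ alone, each for 3, 9 or 15 h, or were left unstimulated (0 h). Each of the 10 groups held 2 libraries, given by the submitters as biological replicates. CpG is a short DNA that ligates the receptor TLR9. The protocols name CpG ODN-1826, shown here with its CG pairs in capitals, in a text on a stimulation of another length, and do not say that these libraries were made with it:
CpG ODN-1826: tccatgaCGttcctgaCGtt

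A polarization with IL-4 plus IL-10 stands in the protocols too, without a word on which cells, stimulated or not, underwent it. Untreated cells kept for 3, 9 or 15 h were not analysed here, so that stimulation and time in culture cannot be told apart against 0 h. The files hold tags of enhancers and no expression of genes, and the annotation at hand is of another genome build, so that the macrophage label was not checked against marker genes and no sequence or neighbouring gene of an enhancer is given.

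Active enhancers are transcribed in both directions into short, unstable RNAs, and CAGE can read this transcription at its start sites. In macrophages, lineage factors such as PU.1 keep many enhancers open before any signal. Others, called latent enhancers, gain factor binding and histone marks only after a stimulus. IFN-γ acts through its own receptor at the cell surface and induces IRF1, a factor for ISRE elements. TLR9, the receptor of CpG DNA, acts through MyD88 and leads to NF-κB and AP-1. The term latent rests on chromatin, which was not measured here: silent means without a tag in 2 libraries.

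The 2 unstimulated libraries held 27262303 tags together, over the genome, so that a count of 0 allows a level of up to 0.110 RPM (3 tags over both; RPM is a count scaled to the tags of its whole library, and the limit covers counting error only). The choice cut through a continuous range. There were 75 silent enhancers with exactly 20 tags, while 79 enhancers without an unstimulated tag had 19 and were left out. A further 759 enhancers had 1 unstimulated tag and 20 or more stimulated ones, with a median of 30. How far a count of 0 carries over to a second library was read by making the choice in replicate 1 alone (no unstimulated tag and 10 or more stimulated tags) and reading replicate 2. Of 1555 enhancers chosen in that way, 976 (62.8%) had no tag in unstimulated replicate 2, against 29.8% of all 5961 enhancers tested, and 86 had 3 or more, up to 8. With the replicates exchanged, 1174 of 1994 (58.9%) had no tag, against 27.2% of all tested, and 163 had 3 or more, up to 10. All tested are no matched background here. They entered by 20 tags over all libraries, unstimulated ones included, and were not matched for level, so that the gap does not measure carry-over alone. The next values are again those of the enhancers chosen in a single replicate. In the replicate not used for the choice, these enhancers averaged 0.157 RPM in stimulated libraries and 0.0452 RPM in the unstimulated one, and with the replicates exchanged 0.126 RPM in stimulated libraries and 0.0539 RPM in the unstimulated one.

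Silent enhancers were weakly transcribed after stimulation as well. Their 35373 tags gave a median of 29 tags per enhancer over 18 libraries (quartiles 24 and 40), against a median of 40 over 20 libraries for the 4993 other enhancers tested. A total of 143 had 50 tags or more, 23 had 100 or more, and the 10 richest held 5.41% of all their tags. A median silent enhancer had a tag in 12 of the 18 libraries and in both libraries of 5 of the 9 groups, and 967 of 968 had a tag in both libraries of 1 group or more. The richest library of an enhancer held a median of 20.0% of its tags, and in 1 enhancer more than 50% (53.8%). Since 1 tag was worth 0.0722 to 0.0783 RPM, most levels of a silent enhancer in a library rest on 0 to a few tags. Replicates correlated over the 968 enhancers at r = 0.441 to 0.651 on log values, as a description. Whole libraries ranged in depth between 12776280 and 13855472 tags, and enhancers took 0.0991% to 0.220% of them.

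Summed over the 968 enhancers, the level was highest in cells given both stimuli and lowest with CpG alone. Cells given both stimuli had 217 and 302 RPM at 3 h, 174 and 176 at 9 h, and 203 and 248 at 15 h. With CpG the sums were 57.4 and 61.2 RPM at 3 h, 104 and 100.2 at 9 h, and 96.6 and 87.6 at 15 h. With IFN-γ they were 119 and 95.9 RPM at 3 h, 139 and 197 at 9 h, and 130 and 140 at 15 h. At 3 and 15 h the 3 stimuli did not overlap, with the combination above IFN-γ and IFN-γ above CpG. At 9 h the combination lay inside the range of IFN-γ in RPM, and CpG was below both. As a share of all enhancer tags of a library, the 9 h libraries gave 12.5% and 13.3% with both stimuli. With IFN-γ this share was 10.9% and 11.0%, and with CpG 6.47% and 6.33%, so that the combination lay above both. In bulk samples such as these, fewer transcribing cells and less RNA per cell cannot be told apart.

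As a description, without a test on 2 libraries a group, the order of the times was not the same for each stimulus. With both stimuli the mean sum was 259 ± 59.7, 175 ± 1.73 and 226 ± 31.4 RPM at 3, 9 and 15 h (SD, n = 2 here and for the means that follow). It was 59.3 ± 2.69, 102 ± 3.03 and 92.1 ± 6.38 RPM at 3, 9 and 15 h with CpG, and 107 ± 16.4, 168 ± 40.7 and 135 ± 7.34 RPM with IFN-γ. With either single stimulus both libraries of 9 h and both of 15 h were above both of 3 h, whereas with both stimuli the 3 and 15 h libraries overlapped. The other 4993 enhancers summed to 1329 ± 269, 981 ± 46.5 and 1347 ± 223 RPM at 3, 9 and 15 h with both stimuli and to 1317 ± 45.8 RPM in unstimulated cells, so that the combination was also lowest at 9 h there. They summed to 1052 ± 48.3, 1240 ± 18.4 and 1187 ± 35.7 RPM with CpG and to 881 ± 191 and 1129 ± 259 RPM at 3 and 9 h and 935 and 991 RPM in the 2 libraries of 15 h with IFN-γ. The part of these totals in the sums of silent enhancers was not tested. Silent enhancers were also read as a share of all enhancer tags of a library. With both stimuli this share was 13.5% and 13.7% at 3 h, 12.5% and 13.3% at 9 h, and 12.4% and 11.9% at 15 h. On that scale 9 h was not the lowest time of the combination.

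**Figure D1:**
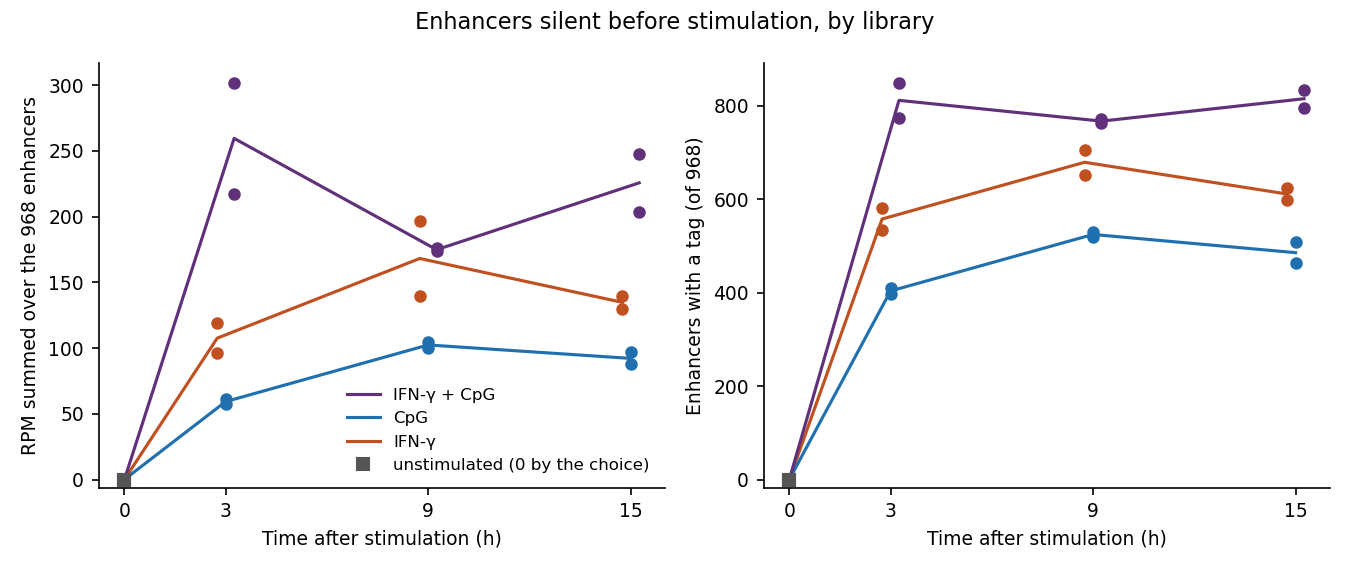
The left panel plots the summed RPM of the 968 silent enhancers, and the right panel the number of them with a tag, against time after stimulation in hours. Points are libraries, lines join the means of 2 libraries, and the grey square marks the unstimulated libraries, which are at 0 by the choice; both stimuli together lie highest at 3 and 15 h (217 to 302 and 203 to 248 RPM) and CpG lies lowest throughout.

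More silent enhancers had a tag with both stimuli than with either alone, as the right panel of the plot by library shows. With both stimuli, 774 and 849 of 968 had a tag at 3 h, 771 and 763 at 9 h, and 796 and 834 at 15 h. With CpG these numbers were 397 and 410 at 3 h, 529 and 520 at 9 h, and 508 and 463 at 15 h. With IFN-γ they were 582 and 533 at 3 h, 652 and 706 at 9 h, and 598 and 624 at 15 h. The lowest library with both stimuli (763) thus lay above the highest with IFN-γ (706), and the lowest with IFN-γ (533) above the highest with CpG (529). Both libraries of a group had a tag at 717, 631 and 711 silent enhancers at 3, 9 and 15 h with both stimuli, at 251, 391 and 342 with CpG, and at 381, 569 and 476 with IFN-γ.

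By tags, silent enhancers leaned away from CpG. Of the tags of the 968, 49.8% lay in the 6 libraries with both stimuli, 18.9% in those with CpG and 31.2% in those with IFN-γ, whereas the stimulated tags of the other enhancers tested split into 36.2%, 34.1% and 29.7% in the same order. No tag appeared in any of the 6 libraries with both stimuli at 1 silent enhancer, in the 6 with CpG at 175 (18.1%) and in the 6 with IFN-γ at 76 (7.85%). Tags from all 3 stimuli were found at 719 silent enhancers, from the combination alone at 2, from IFN-γ alone at 1 and from CpG alone at none. The exception without a tag in the combination, chr12:55066935-55067267, had no tag with CpG, while its IFN-γ libraries held none at 3 h, 11 and 7 tags at 9 h, and 5 and 3 at 15 h.

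The group with the highest mean RPM differed between silent enhancers. It was the combination at 3 h for 309 of 968, at 9 h for 87 and at 15 h for 201. It was CpG for 28, 72 and 54, and IFN-γ for 31, 124 and 62, at 3, 9 and 15 h. Within a stimulus, among silent enhancers with 10 or more tags in it, the combination was highest at 3 h in 377 of 773, at 9 h in 129 and at 15 h in 267. CpG was highest at 3 h in 45 of 273, at 9 h in 123 and at 15 h in 105, and IFN-γ at 3 h in 101 of 468, at 9 h in 244 and at 15 h in 123. So 9 h was the most frequent time of the highest level with each single stimulus and the least frequent with both, as counts with no test.

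Set against the sum of the RPM under the single stimuli, the combination stood above it at 3 h and below it at 9 h. At 3 h, the 968 enhancers had 217 to 302 RPM with both stimuli, against 153 to 180 RPM for CpG and IFN-γ added up, a ratio of means of 1.56. At 9 h they had 174 to 176 RPM with both stimuli, against 239 to 301 RPM for the sum, a ratio of 0.646. At 15 h the ranges overlapped, with 203 to 248 RPM for both stimuli and 217 to 237 RPM for the sum (ratio 0.995). Single enhancers followed in counts: 604 were above their sum and 353 below it at 3 h, 278 above and 690 below at 9 h, and 451 above and 515 below at 15 h. These are descriptions of RPM, and the ratios were not tested. By the share of enhancer tags, the combination had 13.5% and 13.7% at 3 h. IFN-γ had 9.06% and 9.67% there, and CpG 4.58% and 4.50%, so that the excess at 3 h was not seen. At 15 h the shares were 12.4% and 11.9% with both stimuli, 10.4% and 10.5% with IFN-γ, and 6.22% and 5.95% with CpG. The combination was then below the single shares added up, as it was at 9 h.

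The first test compared CpG with IFN-γ, pooling the 3 times, with edgeR's quasi-likelihood test on the raw counts of all 5961 enhancers tested, with calls made where the Benjamini-Hochberg adjusted p was under 0.05. This contrast lies among stimulated libraries, and the choice of the silent enhancers does not fix its direction. Of the 968 silent enhancers, 435 (44.9%) were called, against 28.1% of all tested. CpG was higher at 125 silent enhancers (12.9%), against 13.5% of all tested. CpG was lower at 310 (32.0%), against 14.7% of all tested. The share higher with CpG was thus close to the background, and the share lower exceeded it. The median log2 ratio of CpG over IFN-γ, from summed RPM with a floor of 3 tags, was -0.98 over silent enhancers and 0.22 over all tested. With no overlap between the 6 and the 6 libraries, CpG was called higher at 58 and lower at 116 silent enhancers. Calls with no overlap were not counted over all tested, so that these numbers have no background beside them. DESeq2 made fewer calls, with 30 silent enhancers higher (3.10%, against 4.51% of all tested) and 117 lower (12.1%, against 6.39%).

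**Figure D2:**
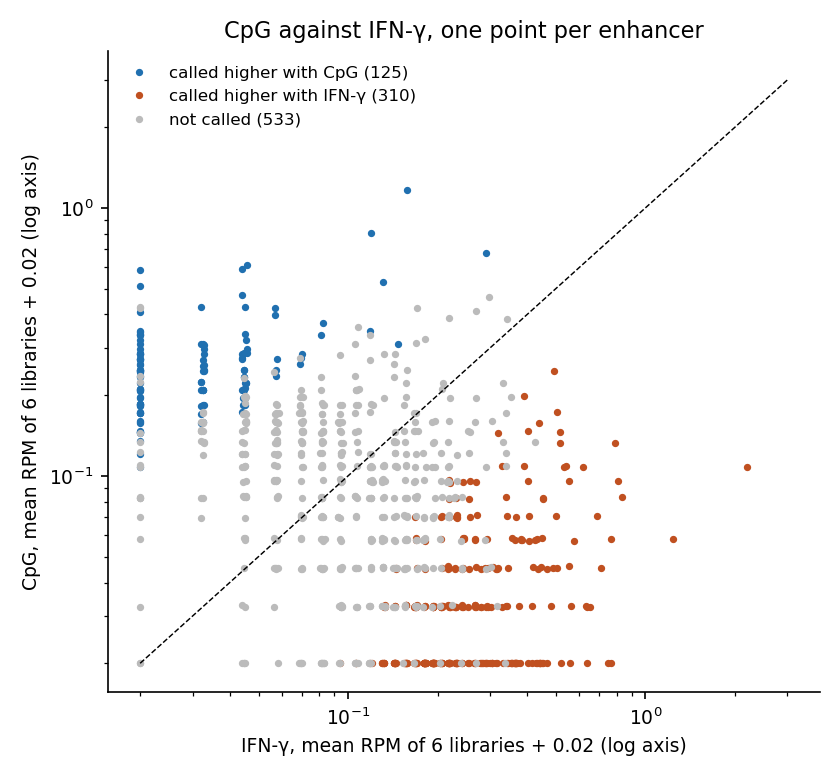
Each point is 1 of the 968 silent enhancers, with its mean RPM over 6 CpG libraries on the vertical axis and over 6 IFN-γ libraries on the horizontal axis, both plus 0.02 and on log axes; the dashed line marks equal levels. The 125 enhancers called higher with CpG lie above the line and the 310 called lower with CpG, that is higher with IFN-γ, below it; points on the left edge have no tag with IFN-γ and points on the bottom edge none with CpG.

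Enhancers called higher with CpG included several without any tag under IFN-γ. Enhancer chr19:32173751-32173942 had 0.299 and 0.382 RPM at 3 h, 0.894 and 0.594 at 9 h, and 0.615 and 0.626 at 15 h with CpG, against none in the 6 IFN-γ libraries. Every CpG library was therefore above every IFN-γ library, at least 15.2-fold in the mean against a floor of 3 tags over the 6 IFN-γ libraries (adjusted p by edgeR = 2.67e-08). With both stimuli it had 0 and 0.296 RPM at 3 h, 0.151 and 0.228 at 9 h, and 0.516 and 0.390 at 15 h. Enhancer chr6:49478371-49478772, a like case, ranged from 0.157 to 0.671 RPM with CpG (median 0.378) against no IFN-γ tag, at least 10.5-fold (adjusted p by edgeR = 1.25e-05). The strongest of this kind by tags, chr19:10822778-10823211, was not without IFN-γ tags. It had 0.523 and 0.687 RPM at 3 h, 1.12 and 1.49 at 9 h, and 1.23 and 1.80 at 15 h with CpG, against 0.227 and 0.308 at 3 h, 0 and 0.145 at 9 h, and 0.0756 and 0.0748 at 15 h with IFN-γ. All CpG libraries lay above all IFN-γ libraries, with 90 against 11 tags and a log2 change of 2.93 ± 0.43 (SE; adjusted p by edgeR = 1.00e-09).

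The 3 named enhancers called lower with CpG by the largest fitted change had no tag in its libraries. Enhancer chr11:95308167-95308420 had no tag in the 6 CpG libraries, against 0.756 and 0.462 RPM at 3 h, 0.361 and 0.799 at 9 h, and 0.756 and 1.35 at 15 h with IFN-γ. It was at least 19.7-fold lower with CpG (adjusted p by edgeR = 5.69e-13). Enhancer chr7:45708566-45708712 also lacked CpG tags and had 0.151 and 0.0769 RPM at 3 h, 0.866 and 1.24 at 9 h, and 1.06 and 0.973 at 15 h with IFN-γ (at least 19.4-fold lower with CpG, adjusted p by edgeR = 7.71e-07). Its IFN-γ libraries of 3 h lay well under those of 9 and 15 h. This enhancer and the one before it reached 20 tags only through IFN-γ, which held 59 of 68 and 60 of 76 of their tags. Enhancer chr5:34920286-34920501, at least 14.1-fold lower with CpG (adjusted p by edgeR = 6.81e-10), had 0.378 to 0.846 RPM over the 6 IFN-γ libraries, at a similar level at each time. The richest silent enhancer, chr3:121164067-121164375, had 0 and 0.153 RPM at 3 h, 0.149 and 0.149 at 9 h, and 0.0769 and 0 at 15 h with CpG, against 0.769 to 3.49 RPM with IFN-γ (median 2.31). Its 7 CpG tags against 176 IFN-γ tags gave a log2 change of -4.73 ± 0.38 (SE; adjusted p by edgeR = 1.92e-31).

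**Figure D3:**
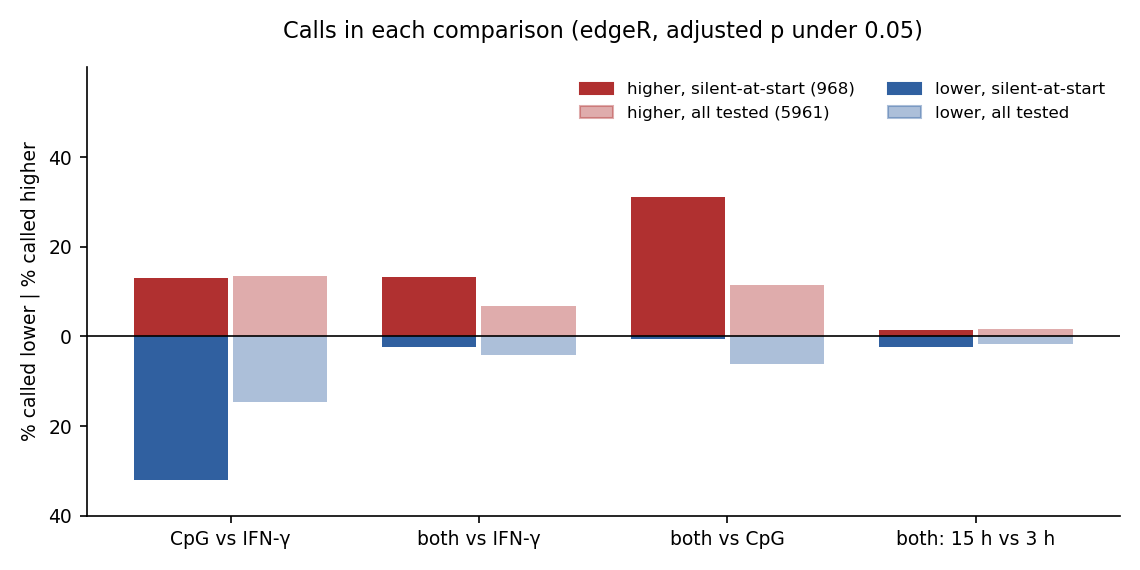
Bars give the percentage called higher (upward) and lower (downward, shown as positive numbers) by edgeR in 4 comparisons, for the 968 silent enhancers in full colour and for all 5961 tested in pale colour. Silent enhancers exceed the background most in the downward bar of CpG against IFN-γ (32.0% against 14.7%) and in the upward bar of both stimuli against CpG (31.1% against 11.4%).

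Both stimuli were next compared with each one alone, times pooled. These comparisons share the libraries with both stimuli, and each shares its second arm with the comparison of CpG and IFN-γ. Against IFN-γ, 152 silent enhancers (15.7%) were called, against 11.0% of all tested. Of these, 128 (13.2%) were higher with both stimuli, against 6.83% of all tested, and 24 (2.48%) lower, against 4.19%. The median log2 ratio was 0.81 over silent enhancers and 0.37 over all tested. By the fitted log2 change the median was 0.59 over silent enhancers and 0.13 over all tested, but 0.09 and 0.03 among those with 50 tags or more. Against CpG, 307 silent enhancers (31.7%) were called, against 17.5% of all tested. Of these, 301 (31.1%) were higher with both stimuli, against 11.4% of all tested, and 6 (0.620%) lower, against 6.12%. The median log2 ratio was 1.57 over silent enhancers and 0.14 over all tested. Without replicate 2 of the combination at 3 h, the library with the highest sum, 91 silent enhancers were called against IFN-γ in place of 152. Over all 5961 tested, 454 were then called in place of 657. DESeq2 called 34 silent enhancers against IFN-γ (3.51%, against 3.66% of all tested), a share near the background, and 108 against CpG (11.2%, against 6.36%). Of the 34, 32 were higher with both stimuli (3.31%, against 2.42% of all tested) and 2 lower (0.207%, against 1.24%). All 108 were higher, against 4.76% of all tested.

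At 39 silent enhancers (4.03%), both stimuli were called higher than CpG and also higher than IFN-γ, against 1.36% of all tested, and at none were they called lower than each. One of these was chr4:132459018-132459199, with 155 tags. It had 1.30 and 1.18 RPM at 3 h, 1.74 and 2.13 at 9 h, and 1.77 and 1.17 at 15 h with both stimuli. With CpG it had 0.0747 and 0.0764 RPM at 3 h, 0.298 and 0.0743 at 9 h, and 0.307 and 0 at 15 h, and with IFN-γ 0.227 and 0.0769 at 3 h, 0.217 and 0.436 at 9 h, and 0.303 and 0.224 at 15 h. The 6 libraries with both stimuli lay above all 12 of the single stimuli, which overlapped each other. The log2 change was 3.42 ± 0.38 against CpG (SE; adjusted p by edgeR = 3.41e-16) and 2.43 ± 0.34 against IFN-γ (SE; adjusted p by edgeR = 8.50e-10).

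A second one, chr16:17285443-17285962, differed by time. With both stimuli it had 0.433 and 0.739 RPM at 3 h, 3.33 and 2.43 at 9 h, and 2.07 and 2.81 at 15 h, against 0 to 0.149 RPM with CpG (3 tags in 6 libraries) and 0.150 to 0.605 RPM with IFN-γ (median 0.371). At 3 h the combination thus overlapped IFN-γ, and at 9 and 15 h it lay above every library of a single stimulus. The ratio to CpG was 51.4 (95% counting interval 17.3 to 252; adjusted p by edgeR = 4.45e-22), and the log2 change against IFN-γ was 1.82 ± 0.32 (SE; adjusted p by edgeR = 1.38e-06). Enhancer chr2:117129364-117129727, with tags in all 18 libraries, had 0.961 to 2.03 RPM with both stimuli (median 1.29), 0.299 to 0.965 with CpG (median 0.619) and 0.0748 to 0.581 with IFN-γ (median 0.228). Its lowest combination library lay just under the highest CpG library, so that the groups overlapped, and the log2 change was 1.05 ± 0.28 (SE; adjusted p by edgeR = 0.00318). The combination lay above every IFN-γ library, with a log2 change of 2.28 ± 0.35 (SE; adjusted p by edgeR = 4.21e-08). Its higher level with CpG than with IFN-γ (log2 change 1.23 ± 0.42, SE, adjusted p by edgeR = 0.0165) lost its call without IFN-γ 15 h replicate 2 or CpG 3 h replicate 2.

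Enhancers that stood highest above IFN-γ in the combination mostly had tags with CpG too. Enhancer chr9:88842125-88842581 had 0.289 and 0.443 RPM at 3 h, 0.454 and 0.609 at 9 h, and 1.25 and 0.546 at 15 h with both stimuli, against no tag in the 6 IFN-γ libraries, or at least 16.1-fold (adjusted p by edgeR = 4.95e-08). With CpG it had 0.0747 to 0.594 RPM (median 0.188), overlapping the combination. Enhancer chr2:77937049-77937442 had 0.289 to 1.70 RPM with both stimuli (median 1.08) and 0.297 to 0.939 with CpG (median 0.485), against 2 tags in 1 of 6 IFN-γ libraries. Its ratio of both stimuli to IFN-γ was 26.4 (95% counting interval 10.6 to 333; adjusted p by edgeR = 3.26e-11). Enhancers highest above CpG had tags with IFN-γ: chr4:116512915-116513101 had 0.380 to 0.813 RPM with both stimuli (median 0.599) and 0.224 to 0.615 with IFN-γ (median 0.593), which overlapped, against no CpG tag (at least 16.1-fold, adjusted p by edgeR = 2.53e-10).

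Silent enhancers called lower with both stimuli than with one were fewer than those called higher, as given above. By level, lower values were not rare. From summed RPM with a floor of 3 tags, the combination was below IFN-γ at 247 of 967 silent enhancers, against 2067 of 5904 over all tested. It was below CpG at 176 of 965, against 2777 of 5931 over all tested. Enhancer chr11:95308167-95308420, described above, had 0.144 and 0.665 RPM at 3 h, 0.0757 and 0.152 at 9 h, and 0.0738 and 0.0780 at 15 h with both stimuli, against 0.361 to 1.35 RPM with IFN-γ. The libraries overlapped only through replicate 2 of the combination at 3 h, and the log2 change was -2.38 ± 0.47 (SE; adjusted p by edgeR = 4.47e-05). Enhancer chr7:45708566-45708712 had no tag with both stimuli at 3 h, 0.303 and 0.0761 RPM at 9 h, and 0.148 and 0.156 at 15 h (log2 change against IFN-γ -3.10 ± 0.77, SE, adjusted p by edgeR = 0.00187). At 9 and 15 h its combination libraries lay under all 4 IFN-γ libraries of those times. Among silent enhancers called lower with no overlap of libraries, which were not counted over all tested, 1 was found in each comparison. It was chr2:158005040-158005337 against IFN-γ, with 0 to 0.148 RPM for both stimuli and 0.151 to 0.581 RPM for IFN-γ (adjusted p by edgeR = 0.0120). Against CpG it was chr15:77765986-77766306, with 0 to 0.217 RPM for both stimuli and 0.224 to 0.313 RPM for CpG (adjusted p by edgeR = 0.0364). The first of these calls was lost without any 1 of 3 libraries and the second without any 1 of 7. IFN-γ held 27 of the 32 tags of the first enhancer, and CpG 22 of the 29 of the second. Each reached the number of tags needed for the test only through that stimulus.

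**Figure D4:**
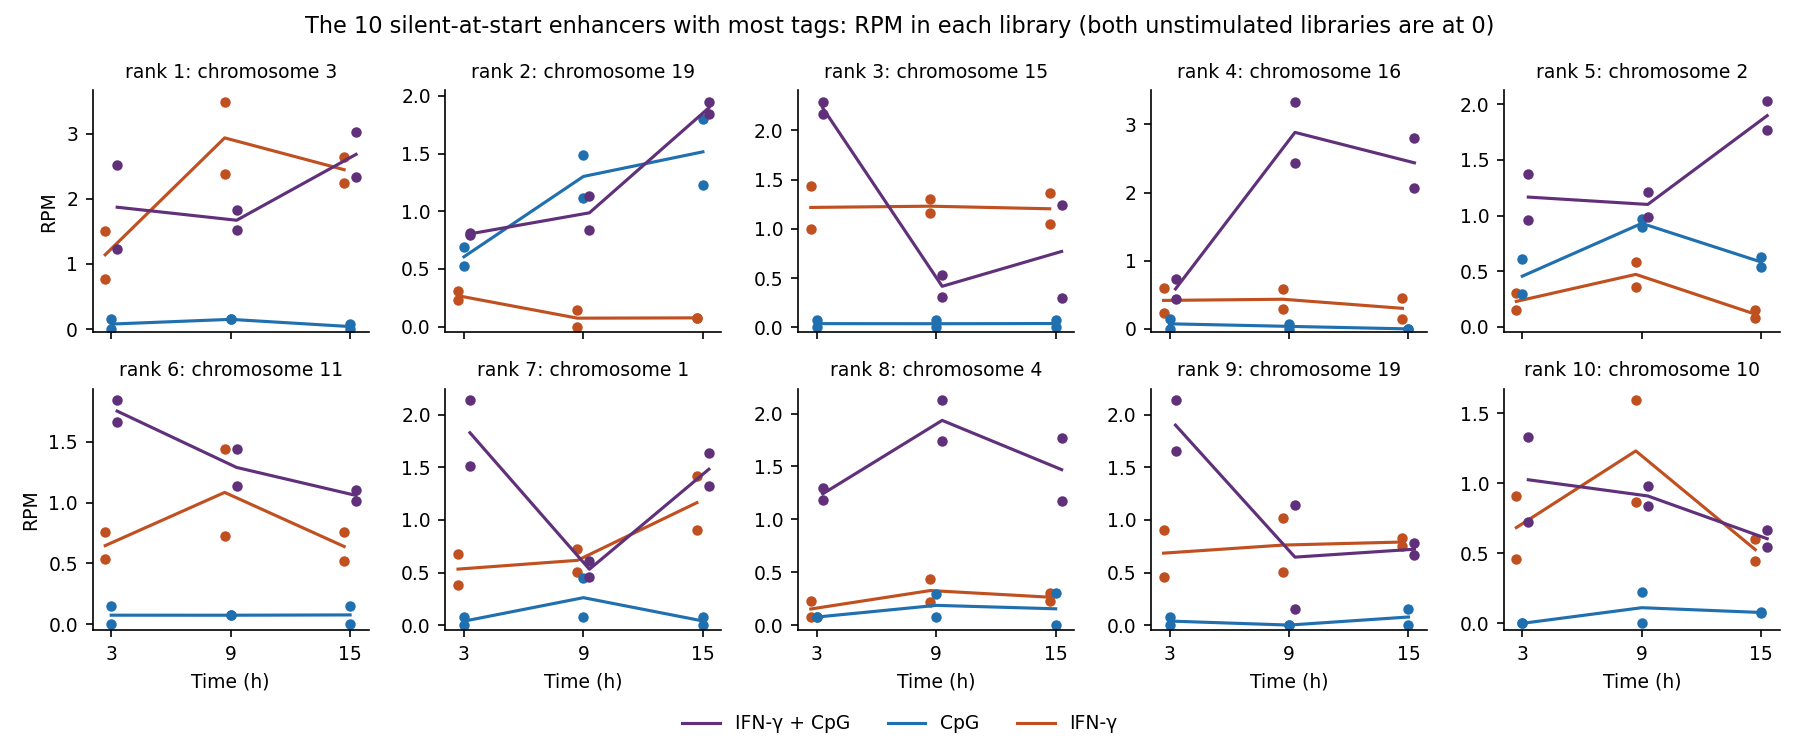
Each panel plots RPM against time in hours for 1 of the 10 silent enhancers with most tags, ranked by tags; points are libraries, lines join the means of 2, and each panel has its own vertical scale. Rank 8 on chromosome 4 is high with both stimuli (1.17 to 2.13 RPM) and at 0 to 0.436 RPM with CpG or IFN-γ alone, and rank 2 on chromosome 19 is high with both stimuli and with CpG and at 0.308 RPM or less with IFN-γ.

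Among the 10 richest silent enhancers, 7 were called lower and 2 higher with CpG than with IFN-γ, and the remaining one was chr4:132459018-132459199. Calls are more frequent at such depth. With 50 tags or more, 79 of 143 silent enhancers were called lower and 25 higher, against 427 and 423 of 2107 over all tested. Enhancers as rich as these 10 were not counted over all tested. The courses over time with both stimuli differed within the 10. Enhancer chr15:74870658-74871129 had 2.17 and 2.29 RPM at 3 h, 0.530 and 0.304 at 9 h, and 0.295 and 1.25 at 15 h with both stimuli, while IFN-γ alone gave 1.00 to 1.44 RPM over the 3 times. Its combination was thus above IFN-γ at 3 h and below it at 9 h. Enhancer chr19:11517556-11517878 had 1.66 and 2.14 RPM at 3 h, 0.151 and 1.14 at 9 h, and 0.664 and 0.780 at 15 h with both stimuli, against 0.462 to 1.02 RPM with IFN-γ and 0 to 0.154 RPM with CpG. Enhancer chr11:21189605-21190141 had 1.66 and 1.85 RPM at 3 h, 1.14 and 1.45 at 9 h, and 1.11 and 1.01 at 15 h with both stimuli, against 0.524 to 1.44 RPM with IFN-γ. Enhancer chr1:170845432-170845645 had 1.52 and 2.14 RPM at 3 h, 0.605 and 0.457 at 9 h, and 1.33 and 1.64 at 15 h with both stimuli, a low point at 9 h that IFN-γ (0.505 and 0.726 RPM at 9 h) did not have. The last, chr10:117555820-117556219, had 0.546 to 1.33 RPM with both stimuli, 0 to 0.224 RPM with CpG and 0.449 to 1.60 RPM with IFN-γ, so that the combination and IFN-γ overlapped.

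Change between 3 and 15 h was tested within each stimulus. With both stimuli, 38 silent enhancers (3.93%) were called, against 3.36% of all tested, a share near the background. At 15 h, 14 were higher than at 3 h, against a background of 1.66%, and 24 were lower, against 1.69%. With CpG, 1 silent enhancer was called, higher at 15 h, against 0.201% of all tested, and 45 had an unadjusted p under 0.05. With IFN-γ none was called by edgeR, against 0.252% of all tested, while 79 had an unadjusted p under 0.05, DESeq2 called 0 and limma 6 to 17. Over all 5961 tested, limma called 26 to 68 with IFN-γ. The median log2 ratio of 15 over 3 h, among silent enhancers with more than 3 tags in either group, was -0.27 with both stimuli, 0.45 with CpG and 0.40 with IFN-γ, against 0.05, 0.30 and 0.24 over all tested. No silent enhancer was called by edgeR for a different course with CpG than with IFN-γ, against 0.0503% of all tested, with 43 at an unadjusted p under 0.05 (DESeq2 0, limma 0 or 1). The counts at an unadjusted p under 0.05 were not made over all tested and include enhancers that pass without any change. They are no sign of further differences, and an enhancer not called may still differ. For both stimuli DESeq2 called 2, against 0.520% of all tested. With 1 of the 4 combination libraries left out, 8 to 14 were called, and without either library of 15 h the higher calls outnumbered the lower ones (7 and 4 without replicate 1, 5 and 3 without replicate 2). Over all tested, 37 to 74 were called with 1 of these libraries left out.

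The named enhancers of steepest fitted rise were without a tag at 3 h with both stimuli, while other called ones, such as chr16:17285443-17285962 above, had tags at 3 h. Enhancer chr7:83248584-83248851 had no tag in either library at 3 h, 0.227 and 0.304 RPM at 9 h, and 0.959 and 1.25 at 15 h with both stimuli, so that both libraries of 15 h were above all others of the combination (at least 10.0-fold over 3 h, adjusted p by edgeR = 9.98e-05). With CpG it had 0.149 and 0.0764 RPM at 3 h, 0.224 and 0.668 at 9 h, and 0.538 and 0.313 at 15 h, and with IFN-γ it had no tag. Enhancer chr3:15575089-15575313 likewise had none at 3 h, 0.151 and 0.837 RPM at 9 h, and 0.959 and 1.01 at 15 h with both stimuli (at least 8.99-fold, adjusted p by edgeR = 3.76e-04). Outside the combination it had 1 tag, in a CpG library of 9 h. The combination libraries of 15 h held 13 and 13 of its 40 tags. It reached the number of tags needed for the test only through them. Enhancer chr5:65057409-65057845 also lacked tags at 3 h with both stimuli and had 0.378 and 0.304 RPM at 9 h and 0.516 and 1.25 at 15 h (at least 7.96-fold, adjusted p by edgeR = 9.02e-04), and this call was lost without replicate 2 of the combination at 3 h or at 15 h. Enhancer chr17:18102988-18103257 was the one called with CpG, with no tag at 3 h, 0.596 and 0.520 RPM at 9 h, and 0.845 and 0.470 at 15 h. This call (at least 5.82-fold, adjusted p by edgeR = 0.0433) was lost without any 1 of the 4 libraries. With both stimuli the same enhancer had no tag at 3 h, 0.378 and 0.457 RPM at 9 h, and 0.885 and 0.546 at 15 h (at least 6.57-fold, adjusted p by edgeR = 0.00235), and no tag in any IFN-γ library.

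The named enhancers of steepest fitted fall had tags with both stimuli at 3 h and none at 15 h, while other called ones, such as chr15:74870658-74871129 above, had tags at 15 h. Enhancer chr9:46031248-46031679 had 1.16 and 1.11 RPM at 3 h, 0.151 and 0.0761 at 9 h, and none at 15 h with both stimuli (at least 9.96-fold lower at 15 h, adjusted p by edgeR = 5.75e-05). With IFN-γ it had 0.605 and 0.154 RPM at 3 h, 0 and 0.218 at 9 h, and 0.227 and 0.224 at 15 h. Enhancer chr1:95243303-95243549 had 0.794 and 1.48 RPM at 3 h, 0.151 and 0.0761 at 9 h, and none at 15 h with both stimuli (at least 9.96-fold lower, adjusted p by edgeR = 7.16e-05). For both, each 3 h library of the combination lay above every later one. The second, chr1:95243303-95243549, had 11 and 20 of its 48 tags in these 3 h libraries. It reached the number of tags needed for the test only through them. Enhancer chr11:21169924-21170188 had 1.01 and 0.443 RPM at 3 h and no tag at 9 or 15 h with both stimuli (at least 6.42-fold lower, adjusted p by edgeR = 0.00447), a call lost without any 1 of 3 libraries. For chr11:21169924-21170188 the 3 h combination libraries held 14 and 6 of 30 tags, and it too reached the needed number only through them. The neighbouring chr11:21189605-21190141, one of the 10 richest, still had 1.11 and 1.01 RPM at 15 h with both stimuli.

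In the genome, silent enhancers were spread over all chromosomes and partly grouped. They made up 16.2% of the enhancers tested, and among the autosomes this share lay between 11.6% on chromosome 18 and 22.3% on chromosome 16. Their median width was 311 bp (quartiles 231 and 415), against 343 bp (251 and 448) for the other enhancers tested, and the nearest other enhancer lay at a median of 2.55 kb, against 2.33 kb. Another silent enhancer lay within 50 kb of 412 (42.6%) of them, whereas 23.7% of the other enhancers tested had a silent one within 50 kb. An enhancer with 5 or more unstimulated tags lay within 50 kb of 318 silent enhancers (32.9%), and within 5 kb of 118. Joining silent enhancers at most 50 kb from the next gave 161 runs of 2 or more, 54 of them of 3 or more, and left 556 alone. Neighbours may share 1 source of transcription and are no replicates of each other.

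Within runs the stimuli were partly shared. Over the 6 and 6 libraries, 368 silent enhancers had a higher level with CpG and 598 with IFN-γ. In 4 of the 54 runs of 3 or more, every enhancer was higher with CpG, in 24 every one was higher with IFN-γ, and 26 were mixed. The largest run held 9 silent enhancers at chr15:74790406-74923036 (132.6 kb), with 237 tags for both stimuli, 10 for CpG and 287 for IFN-γ. Its sum was 4.77 and 3.84 RPM at 3 h, 1.67 and 1.67 at 9 h, and 2.21 and 3.51 at 15 h with both stimuli. With CpG it was 0 to 0.307 RPM, and with IFN-γ 3.10 and 2.15 RPM at 3 h, 4.33 and 4.87 at 9 h, and 3.40 and 3.44 at 15 h. All IFN-γ libraries lay above all CpG libraries, and at 9 h both combination libraries lay under both IFN-γ ones. Of the 9 enhancers, 8 were called lower with CpG than with IFN-γ and 6 higher with both stimuli than with CpG, and none was called between both stimuli and IFN-γ. Leaving out 1 library ended 2 of the 8 and 3 of the 6 calls in at least 1 case. Another 9 enhancers of the table inside this span were not silent by the rule and held 9 unstimulated tags together.

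**Figure D5:**
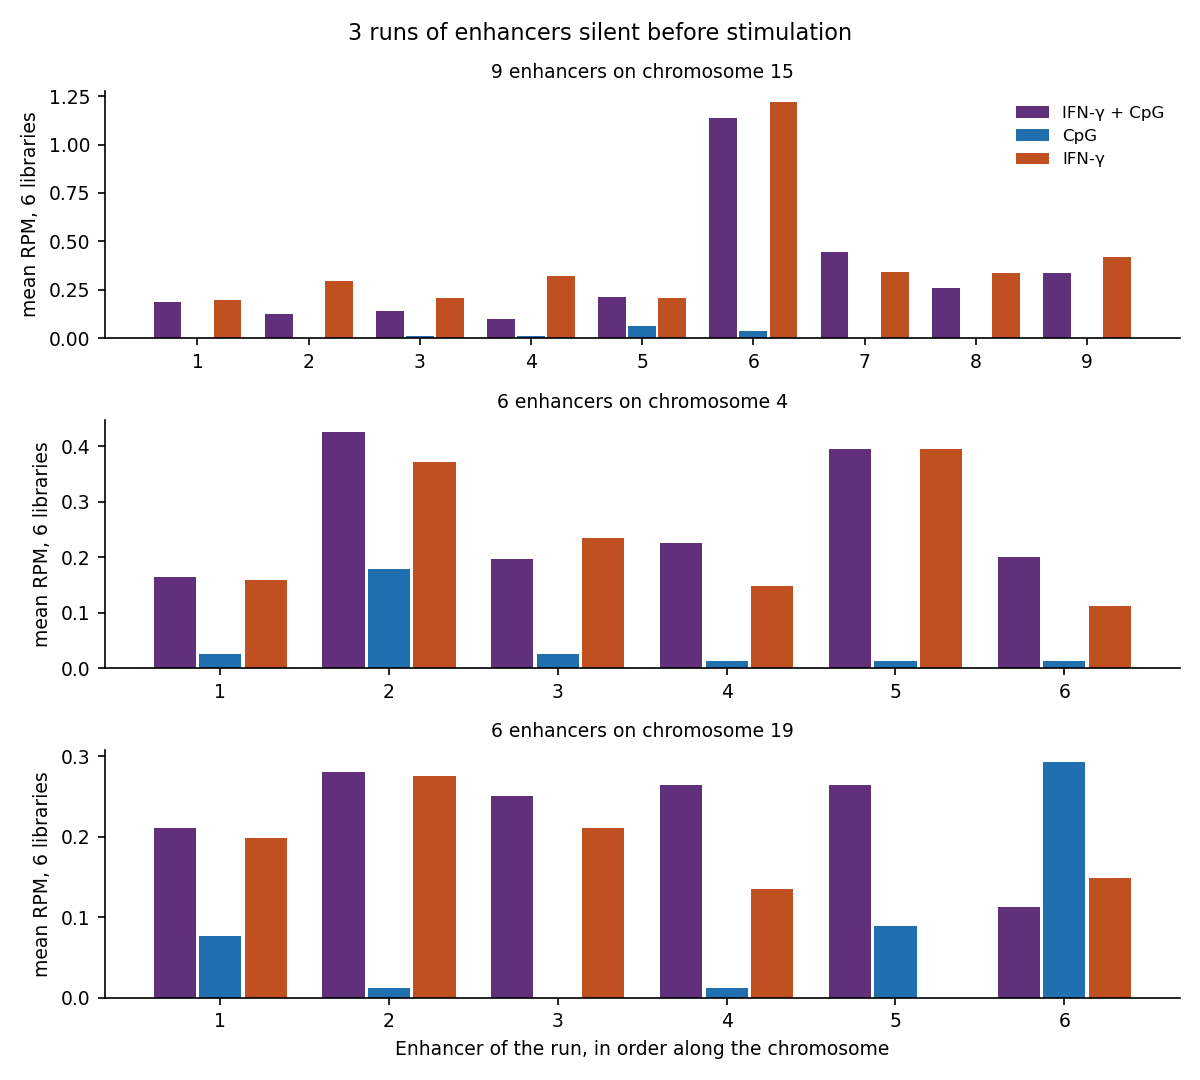
Bars give the mean RPM over 6 libraries with both stimuli, CpG or IFN-γ for each silent enhancer of 3 runs, those of most members with a tie at 6 settled by tags, numbered along the chromosome and not to scale in distance. CpG bars are low or missing over the runs on chromosomes 15 and 4, and in the run on chromosome 19 the fifth enhancer has no IFN-γ tag and the sixth has its highest level with CpG.

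A compact run, chr4:132527324-132535872, held 6 silent enhancers within 8.55 kb and no other enhancer of the table. It had 129 tags for both stimuli, 21 for CpG and 115 for IFN-γ, and 5 of its 6 enhancers were called lower with CpG than with IFN-γ, while 5 of 6 were called higher with both stimuli than with CpG. Its sum was 1.59 and 2.81 RPM at 3 h, 0.908 and 1.22 at 9 h, and 1.25 and 1.87 at 15 h with both stimuli. With CpG it was 0.0747 and 0.0764 RPM at 3 h, 0.298 and 0.371 at 9 h, and 0.307 and 0.470 at 15 h. With IFN-γ it was 1.44 and 0.462 RPM at 3 h, 1.52 and 2.40 at 9 h, and 1.51 and 1.20 at 15 h. At each time both CpG libraries lay under both IFN-γ libraries, while across times CpG 15 h replicate 2 came level with IFN-γ 3 h replicate 2. In each of the 2 comparisons, 4 of the 5 calls were lost when some single library was left out.

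The third run, chr19:29345790-29463154 (117.4 kb), held 6 silent enhancers with 111 tags for both stimuli, 38 for CpG and 78 for IFN-γ, and 3 of them were called lower with CpG than with IFN-γ, a call that 1 of the 3, chr19:29345790-29346269, lost without any 1 of 11 libraries. A further run of 6, chr5:105290979-105302075, had fewer tags (184) and was not described. In the run on chromosome 19 the last members had other values. Enhancer chr19:29458368-29458581 had 21 tags with both stimuli and 7 with CpG, against none with IFN-γ, and was called higher in the combination than under IFN-γ (at least 7.03-fold, adjusted p by edgeR = 0.00487), a call lost without replicate 1 of the combination at 3 h. With 21 of its 28 tags in the combination, chr19:29458368-29458581 reached the number of tags needed for the test only through it. The next, chr19:29462689-29463154, had 9 tags with both stimuli, 23 with CpG and 12 with IFN-γ and passed no test between stimuli.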

How the data were processed

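Enhancer tags were read in 20 CAGE libraries of macrophages (10 groups of 2, assigned from the titles and characteristics). The submitters' processing notes name HISAT2 2.1.0, BWA 0.7.10, Trimmomatic 0.38 and FastQC 0.11.5, with mm39 as the build; no enhancer caller is given in the sources used here. For each library the authors deposited the raw tag count of 11222 enhancers. Their other deposited table is in RPM: dividing counts by it returned 1 whole-library total per library. Coordinates are printed as deposited, and whether starts count from 0 or 1 is not stated.

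The silent enhancers, gene lists and tests were chosen with earlier results of these data known. Raw counts were tested in R 4.3.3 with edgeR 4.0.16 (robust quasi-likelihood, two-sided, TMM factors, 1 coefficient per group over 20 libraries, 10 residual degrees of freedom) on the 5961 enhancers with 20 tags or more over all libraries, which all 968 silent enhancers pass. An enhancer of few tags can pass this filter only through the group where it is high. How many calls, among them those in runs, are of this kind was not counted. The 7 comparisons were CpG against IFN-γ, both stimuli against each single one, 15 h against 3 h in each stimulus, and the difference of that change between CpG and IFN-γ. Benjamini-Hochberg adjustment ran over all tested, and calls were made under 0.05. The common biological coefficient of variation was 18.0%. The test of CpG against IFN-γ was run on simulated data with 50 changed enhancers at each fold. It recovered 4% of changes of 2-fold, 40% of 4-fold, 80% of 8-fold and 98% of 16-fold, and 5.13% of its calls were false. The changed enhancers were drawn from all 5961 tested, from 1 mean RPM per enhancer and 1 common coefficient of variation. These rates are therefore not those of silent enhancers, 802 of which had a compared group without a tag in this comparison. The other comparisons, among them those over time with fewer libraries, were not simulated. Levels are RPM; folds against a group at 0 use a floor of 3 tags over the group, and 1 to 3 tags get an exact 95% counting interval; both cover counting error only.

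Named enhancers were the 10 with most tags, in each test up to 3 called rises and 3 called falls of largest log2 change with no overlap of libraries, the 2 with most tags among those without a tag in a stimulus, and the members of the 3 largest runs; those described are a selection of these. Marker, gene list and motif readings that had been planned were not made, since the annotation at hand is of GRCm38 and coordinates were not converted.

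Settings tried beside this were DESeq2 1.42.0, RLE factors, scaling to whole-library totals, other filters, the replicate number as a block, limma 3.58.1 on log2(RPM + 0.5, 0.1 or 2), and leaving out each library; a fit with additive terms was added after the data were seen.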

Additional observations from a re-analysis of the deposited data

How the results depend on the processing

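Counts here are silent enhancers called, unless given as over all tested. For CpG against IFN-γ (435), DESeq2 called 147 (30 higher, 117 lower), filterByExpr left 368 to test and gave 237, and a total of 50 tags or more left 143 and gave 104. Over all tested (1678 of 5961), DESeq2 called 650, filterByExpr gave 1189 of 2792, and the total of 50 gave 850 of 2107. For both stimuli against IFN-γ (152) DESeq2 gave 34, the total of 50 gave 49, and limma gave 290, 265 and 279 with pseudocounts of 0.5, 0.1 and 2. Over all tested (657), DESeq2 gave 218, the total of 50 gave 479 of 2107, and limma gave 1029, 1037 and 939. For both stimuli against CpG (307) DESeq2 gave 108, filterByExpr 183, the total of 50 gave 93 and limma with 0.5 gave 463. Over all tested (1044), DESeq2 gave 379, filterByExpr 844 of 2792, the total of 50 gave 628 of 2107, and limma with 0.5 gave 1499. For 15 against 3 h with both stimuli (38, with 14 higher and 24 lower), DESeq2 gave 2 (2 higher, 0 lower), whole-library totals 22 (10 and 12), no filter 21, a total of 50 tags 29 (15 and 14), and limma 175, 91 and 208 with 0.5, 0.1 and 2, so that neither the number nor the prevailing direction held. Over all tested (200), these settings gave 31, 133, 113 of 11222, 259 of 2107, and 587, 357 and 702. For 15 against 3 h with CpG (1), DESeq2, no filter and the replicate block gave 0, the total of 50 gave 4, and limma 7, 4 and 7. Over all tested (12), these settings gave 1, 7 of 11222, 11, 32 of 2107, and 57, 19 and 70. With IFN-γ (0), filterByExpr and the total of 50 gave 2 each and limma 17, 6 and 16. Over all tested (15), these settings gave 28 of 2792, 37 of 2107, and 68, 26 and 68. For the difference of courses (0), limma gave 1 with 0.5 and 1 with 2. Over all tested (3), limma gave 7 and 6 there. Fewer enhancers enter under the stricter filters; the other causes were not tested. Leaving out 1 library gave 331 to 395 for CpG against IFN-γ, 91 to 123 and 236 to 269 for both stimuli against IFN-γ and against CpG, 8 to 14, 0 to 0 and 0 to 0 for 15 against 3 h with both stimuli, CpG and IFN-γ, and 0 to 0 for the difference of courses. The lowest of these for both stimuli, 91, came without replicate 2 of 3 h, and each of the 4 libraries moved the 38 calls by more than 1.5 times (14 and 9 without replicates 1 and 2 of 3 h, 11 and 8 without those of 15 h). With the replicate number as a block, 421, 145, 295 and 27 were called in the 3 comparisons of stimuli and for both stimuli over time, against 1599, 622, 977 and 165 over all tested. Replicate numbers did not pair the libraries (correlations of deviations -0.03 to 0.03 over 45 pairs of groups). A mean of log coefficients is poorly set where a group has no tag, as in 802, 477 and 616 silent enhancers in the 3 comparisons of stimuli. Additive terms, chosen after seeing the data, called 503, 179 and 399, of which 415, 136 and 293 were also called before. Over all tested, additive terms called 1751, 641 and 1113. Whole-library totals moved the median log2 change of all tested from 0.09 to 0.25 for CpG against IFN-γ and from 0.13 to 0.33 for both stimuli against IFN-γ, with 138 higher and 285 lower silent enhancers in the first. Of 76 calls at named enhancers, 52 held without each library in turn and 47 were made by DESeq2, which gave no adjusted p for 18. None changed direction under the other settings. With a library left out, direction was compared only in the run of highest adjusted p, where none changed either. Depth limits single levels: the median was 29 tags over 18 libraries.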
